A study of Mus musculus with 3 samples.

Results

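The genes described here are 10 that encode peptide hormones and granins of enteroendocrine cells: Chga, Chgb, Gcg, Cck, Sct, Gip, Ghrl, Sst, Nts and Pyy. They were chosen by gene symbol, and each had exactly 1 probe set whose only annotated symbol was its own. They are 10 of the 18193 genes with a probe set of their own on the Affymetrix array, and all 10 were among the 11885 genes bright enough to be tested. RNA came from follicle-associated epithelium, the epithelial sheet over the lymphoid follicles of the small intestine, in untreated C57BL/6 mice. One group is wild type for RBP-J (1 array). The other is depleted of RBP-J (2 arrays, called the first and the second depleted array), with Rbpj flox/flox alleles removed by VillinCre, a Cre recombinase driven by the Villin promoter of intestinal epithelium. The labels do not say that the 2 depleted arrays came from separate animals, how many animals gave RNA to an array, or whether the wild type mouse carried Cre or a floxed allele, so the spread between arrays may be technical. Follicle-associated epithelium is a mixture of cell types, and in such RNA fewer cells of a type and less RNA per cell cannot be told apart.

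Enteroendocrine cells are scattered hormone-secreting cells of the gut epithelium. They sense the gut contents and release peptides stored in dense-core granules, in which chromogranins are major proteins. Like goblet, Paneth and tuft cells they descend from crypt stem cells, and Notch signalling, which acts on transcription through RBP-J, holds back the choice of the secretory fate in the crypt. Most hormones are cut from longer precursors by prohormone convertases.

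Promoter windows of all 10 genes were found in RefSeq (build GRCm38.p6), 14 windows in all because Ghrl and Pyy have several start sites. The 250 bases before the start site are shown 5′ to 3′ on the gene's own strand for 4 of them. Nts and Sst are shown because their differences from wild type on the first depleted array exceeded those of the other 8 genes, and Gcg and Cck because their single windows hold the core of the RBP-J binding motif. Capitals mark every match to any of 4 motifs: TATAAA on the gene's strand (the TATA box), and on either strand TGACG (the core of the cAMP response element), TGGGAA (the core of the RBP-J motif) and CAGATG (an E-box of the kind NeuroD factors bind). The windows lie at chr10:102490419-102490668 (minus strand) for Nts, chr16:23890845-23891094 (minus strand) for Sst, chr2:62483654-62483903 (minus strand) for Gcg and chr9:121495695-121495944 (minus strand) for Cck.
Nts: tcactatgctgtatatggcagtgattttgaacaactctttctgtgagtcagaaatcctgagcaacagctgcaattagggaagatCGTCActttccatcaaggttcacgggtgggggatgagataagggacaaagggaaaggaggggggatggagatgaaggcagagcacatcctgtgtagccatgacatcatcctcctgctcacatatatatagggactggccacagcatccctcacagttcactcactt
Sst: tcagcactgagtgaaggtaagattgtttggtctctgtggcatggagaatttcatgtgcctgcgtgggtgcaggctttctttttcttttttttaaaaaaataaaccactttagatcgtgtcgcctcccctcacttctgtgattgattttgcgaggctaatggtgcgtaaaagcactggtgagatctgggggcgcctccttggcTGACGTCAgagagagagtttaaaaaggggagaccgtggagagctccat
Gcg: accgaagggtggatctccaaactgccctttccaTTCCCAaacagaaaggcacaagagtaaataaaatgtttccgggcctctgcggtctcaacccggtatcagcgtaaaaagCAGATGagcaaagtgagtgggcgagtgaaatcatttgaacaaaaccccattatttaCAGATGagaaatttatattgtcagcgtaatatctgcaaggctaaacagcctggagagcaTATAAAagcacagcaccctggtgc
Cck: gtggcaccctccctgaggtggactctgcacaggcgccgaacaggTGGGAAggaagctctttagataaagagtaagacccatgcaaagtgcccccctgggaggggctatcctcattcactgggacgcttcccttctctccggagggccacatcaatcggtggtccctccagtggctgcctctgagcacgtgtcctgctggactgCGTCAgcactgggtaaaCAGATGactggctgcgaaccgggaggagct

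In windows of 300 bases, from 250 before to 50 after a start site, TGACG was found for 5 of the 10 genes, Chga, Chgb, Cck, Nts and Sst. That is 5 of 14 windows, beside 20.8% of all 32851 promoter windows of that length. In Sst and Chgb matches on both strands overlap and spell the same palindrome, shown in capitals above for Sst. It starts 48 bases before the start site in Sst and 72 bases before it in Chgb. TGGGAA was found for Cck, Gcg and Ghrl, in 4 of 14 windows, beside 25.6% of all. CAGATG was found for Cck, Gcg, Ghrl and Sct, in 5 of 14 windows, beside 17.2% of all, and TATAAA for Chga, Gcg and Sct, in 3 of 14 windows, beside 8.32%. Gcg, among the genes shown, has its TATAAA 24 bases before the start site and Sct 28 bases before it. That of Chga lies past the start site, at position 6. These matches are a description of the letters, not binding sites. The 5 genes with TGACG include Sst and Nts, with the largest differences on the first depleted array, and Chgb and Cck, which were among the smaller ones.

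Intensities are given as deposited, on a linear scale on which the median of each array over its 45101 probe sets is 1. Differences are on the log2(value + 0.248) scale, with the wild type value subtracted from the depleted one. All genes tested together had a median difference of -0.00 on the first depleted array and 0.22 on the second. These medians were 0.01 and 0.29 over the 5871 genes tested whose mean intensity reached 5, a range that holds all 10 hormones and granins. Differences on the second array are to be read against that shift. The array control probe sets near the 3′ and 5′ ends of Gapdh, a sign of RNA quality, gave ratios of 1.83 on the wild type array, 2.28 on the first depleted array and 1.54 on the second. Those of Actb gave 1.11, 1.15 and 1.02 in the same order. Rbpj itself has 3 probe sets, whose place relative to the floxed exons is not stated in the labels. They read 7.15, 5.37 and 3.79 on the wild type array, 2.72, 4.14 and 2.30 on the first depleted array and 5.74, 4.92 and 4.21 on the second. All 3 were thus lower than wild type on the first, while on the second 2 were lower and 1 was higher, so that the probe sets do not all go with the label of the second array. The female-specific RNA Xist read 0.297 on the wild type array and 42.8 and 43.4 in the depleted arrays, so that genotype and sex cannot be told apart.

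All 10 genes read higher on the first depleted array than on the wild type one, where 49.8% of all genes tested did. Their log2 differences there ran from 0.19 for Ghrl to 1.54 for Nts, with a median of 0.70. In the second depleted array 6 of 10 read higher than wild type, where 69.7% of all genes tested did, and the median was 0.14, between -0.31 for Sst and 0.55 for Nts. Only Ghrl, Nts and Pyy lay above the median of 0.22 that all genes had on that array. None of the 10 passed the test of both depleted arrays against wild type (limma, Benjamini-Hochberg adjusted p = 0.9997 for each), which called 0.0841% of all genes tested. With the arrays quantile normalized, scaled to the same 75th percentile or centred on the 5871 brighter genes, all 10 still read above wild type on the first depleted array, and 3 of 10 (Ghrl, Nts and Pyy) did on the second. In that order of scalings all genes tested had medians of 0.00, 0.04 and -0.01 on the first depleted array. On the second they were 0.02, 0.04 and -0.07, so the 69.7% does not hold there. The share of all genes under those scalings is not given.

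**Figure D1:**
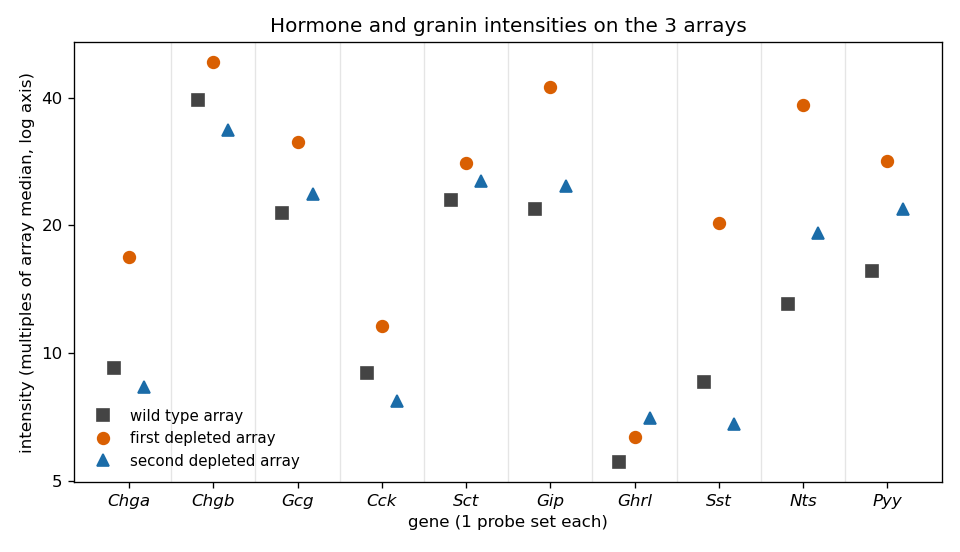
Intensity of each hormone or granin gene on the 3 arrays, in multiples of the array median on a log axis, with 1 point per array and no replicate error for wild type. In 9 of the 10 genes the highest point is the first depleted array; for Ghrl it is the second as deposited, and the first under the 3 other scalings of the arrays.

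Chga encodes chromogranin A, an acidic protein of dense-core granules widely used to mark enteroendocrine cells. Its probe set (1418149_at) read 9.21 on the wild type array, 16.8 on the first depleted array and 8.33 on the second. The first depleted array stood apart and the other arrays lay close together, with wild type between the depleted arrays. Chgb encodes the related chromogranin B, and its probe set (1415885_at) read 39.4 on the wild type array, 48.4 on the first depleted array and 33.5 on the second. Wild type again lay between the depleted arrays. The fitted differences were 0.35 (SE 0.47, 95% confidence interval -0.57 to 1.28) for Chga and 0.03 (SE 0.41, -0.78 to 0.84) for Chgb. The granins thus gave log2 differences of opposite sign in the depleted arrays, at 0.85 and -0.14 for Chga and 0.29 and -0.24 for Chgb.

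Secretin, glucose-dependent insulinotropic polypeptide, cholecystokinin and ghrelin are hormones mainly of the upper gut. Sct, for secretin, which draws bicarbonate from the pancreas, was read by 1418805_at at 23.0 on the wild type array, 28.0 on the first depleted array and 25.4 on the second. Both depleted values lay above wild type, by 1.22-fold and 1.11-fold. Gip, whose product raises insulin release after a meal, was read by 1449908_at at 21.8, 42.2 and 24.7 in the same order. The first depleted array was 1.94-fold above wild type and the second 1.13-fold. Sct and Gip thus both read above wild type on the second array as deposited, and both lay below it with the arrays quantile normalized (-0.17 and -0.13 on the log2 scale), scaled to the same 75th percentile (-0.05 and -0.01) or centred on the 5871 brighter genes (-0.14 and -0.11).

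Cck, for cholecystokinin, which contracts the gallbladder and stimulates pancreatic enzyme release, was read by 1419473_a_at at 8.95 on the wild type array, 11.6 on the first depleted array and 7.72 on the second. Wild type lay between the depleted arrays, as for the granins. Ghrl, for the appetite hormone ghrelin, was read by 1448980_at at 5.53 on the wild type array, 6.32 on the first depleted array and 7.03 on the second. It was the one gene of the 10 with its highest value on the second depleted array, and that order turned under each of the 3 other scalings of the arrays. The fitted differences were 0.22 (SE 0.43, 95% confidence interval -0.64 to 1.07) for Sct and 0.56 (SE 0.43, -0.28 to 1.41) for Gip. They were 0.08 (SE 0.47, -0.85 to 1.01) for Cck and 0.26 (SE 0.48, -0.69 to 1.21) for Ghrl.

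Proglucagon peptides, neurotensin and peptide YY are hormones of the lower small intestine and colon, often made by the same cells. Nts, for neurotensin, which slows gut movement and promotes fat absorption, was read by 1422860_at at 13.0 on the wild type array, 38.3 on the first depleted array and 19.1 on the second. Both depleted values lay above wild type, by 2.94-fold and 1.47-fold, and they differed from each other by 0.99 on the log2 scale. Its fitted log2 difference was 1.04 (SE 0.44, 95% confidence interval 0.17 to 1.91). Its limma adjusted p = 0.9997, and it was the 1 gene of the 10 with an unadjusted p under 0.05, a share to set beside 2.27% of all genes tested.

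Pyy, for peptide YY, which reduces appetite and slows transit, was read by 1424865_at at 15.6 on the wild type array, 28.4 on the first depleted array and 21.9 on the second. Both depleted values lay above wild type, by 1.82-fold and 1.41-fold, with the same order of the arrays as Nts. Gcg, whose precursor gives the incretin GLP-1 in gut and glucagon in the pancreas, was read by 1425952_a_at at 21.4, 31.4 and 23.7. The second depleted array lay close to wild type, at 1.11-fold, and below it with quantile normalization (-0.17 on the log2 scale), the same 75th percentile (-0.05) or centring on the 5871 brighter genes (-0.15). The fitted differences were 0.67 (SE 0.44, 95% confidence interval -0.20 to 1.54) for Pyy and 0.34 (SE 0.43, -0.51 to 1.20) for Gcg.

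Sst encodes somatostatin, which inhibits the release of many of the other hormones. Its probe set (1417954_at) read 8.53 on the wild type array, 20.2 on the first depleted array and 6.82 on the second. The depleted arrays lay on either side of wild type and were 2.97-fold apart, the widest gap between them among the 10 genes. The fitted difference was 0.45 (SE 0.47, 95% confidence interval -0.47 to 1.38). That SE comes almost wholly from the spread pooled over genes, so the gap between the depleted arrays of Sst hardly enters it. In the first depleted array Sst and Nts were the 2 genes at least 2-fold above wild type, beside 3.19% of all genes tested, and none was 2-fold below it, beside 3.23%. In the second no gene of the 10 was 2-fold from wild type, beside 3.57% of all genes at least 2-fold higher and 1.64% at least 2-fold lower. Both comparisons use the same wild type array, and 0 of the 10 genes were at least 2-fold higher in both, beside 0.841% of all genes.

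**Figure D2:**
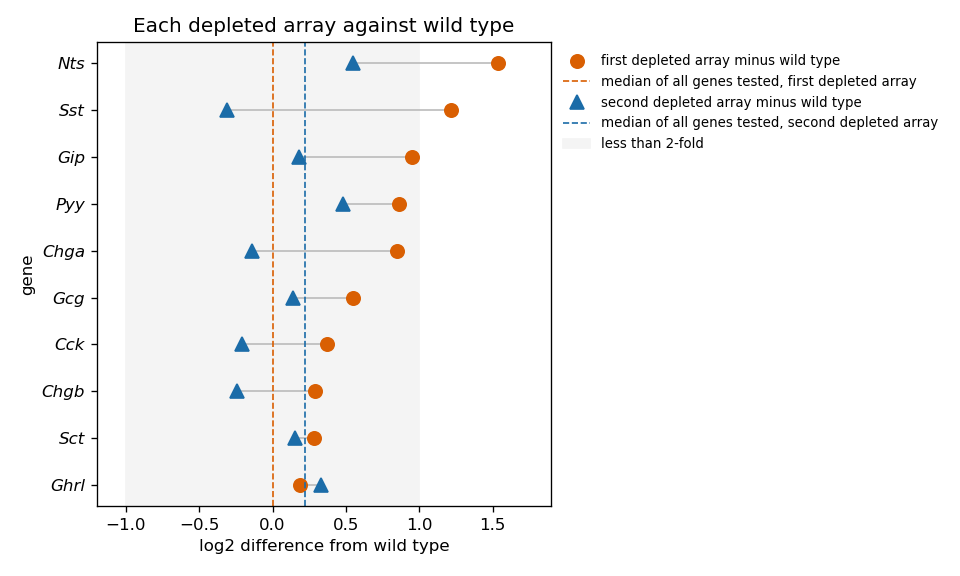
Log2 difference of each gene from wild type on the first (circles) and second (triangles) depleted array, ordered by the first; dashed lines give each array's median over all genes tested. All 10 circles lie right of 0 and run from 0.19 to 1.54, while the triangles run from -0.31 to 0.55; with the 3 other scalings the triangles of Gcg, Sct and Gip lie below 0.

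The depleted arrays can be set against each other without wild type. As deposited the first read above the second in 9 of the 10 genes, beside 33% of all genes tested. It did in all 10 with the arrays quantile normalized, scaled to the same 75th percentile or centred on the 5871 brighter genes. Under those scalings the medians of all genes tested on the 2 depleted arrays were nearly equal, so the 33% does not serve for that count. The share of all genes is not given for them. The median log2 difference, first minus second, was 0.55 over the 10 genes and -0.22 over all genes tested. By gene it ran from -0.15 for Ghrl to 1.53 for Sst, with 0.99 for both Chga and Nts and 0.77 for Gip. The gap between the depleted arrays thus exceeded the fitted difference from wild type in Chga, Chgb, Cck, Sst, Gip and Gcg, but as deposited not in Nts, Pyy, Sct or Ghrl. With each of the 3 other scalings it also did in Nts, Pyy and Sct, at 1.26 against 0.90 for Nts, 0.68 against 0.52 for Pyy and 0.43 against 0.04 for Sct after quantile normalization. For Ghrl it did with centring alone, at 0.13 against 0.11.

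**Figure D3:**
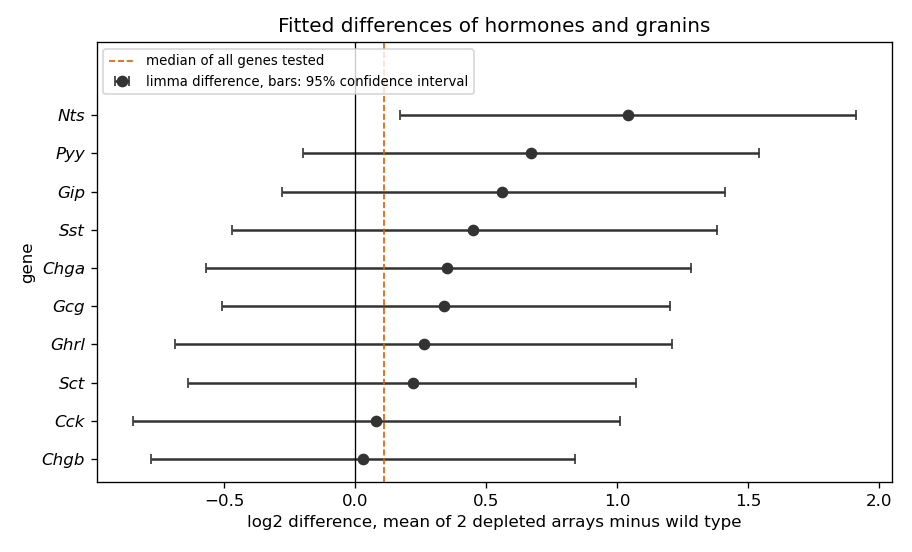
Log2 difference of each gene between the mean of the 2 depleted arrays and the wild type array, as fitted by limma, with 95% confidence intervals from a spread pooled over genes; the dashed line is the median of all genes tested, 0.11. In the main settings only the interval of Nts, from 0.17 to 1.91, leaves out 0, and no gene passed after adjustment. After quantile normalization (0.90, SE 0.47) the Nts interval includes 0.

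The differences of the hormones, as read, were not all equal to that of Chga. In the first depleted array the log2 difference of Nts exceeded that of Chga by 0.69 and that of Sst exceeded it by 0.37, while Ghrl lay 0.67 under it (-0.67) and Sct 0.57 under it (-0.57). Gip and Pyy lay within 0.09 and 0.01 of Chga there. In the second array Nts again exceeded Chga by 0.69 and Pyy by 0.63, Ghrl exceeded it by 0.47, and Sst lay at -0.17. These values do not depend on the scaling between arrays beyond the pseudocount and quantile normalization, since each is a difference within an array. No test was made of them, and single arrays cannot separate unequal change among the genes from the spread between arrays. Chga itself differed by 0.99 on the log2 scale between the depleted arrays.

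Other genes of the enteroendocrine programme were read from lists, and none passed the test (limma adjusted p = 0.9997 or higher for each). Of 20 enteroendocrine transcription factors, 11 were tested: 9 read above wild type on the first depleted array (median 0.69) and 8 on the second (median 0.24). Over all genes tested the shares were 49.8% (median -0.00) and 69.7% (median 0.22), so the second array showed little beyond its general shift. With the 3 other scalings 9 were still higher on the first, and the median of the second ran from -0.05 (centring) to 0.12 (quantile). Neurod1, which drives hormone gene expression late in the lineage, read 1.33 on the wild type array, 3.21 on the first depleted array and 1.44 on the second. Pax6 read 0.947, 2.11 and 1.01, and Isl1, needed for several hormone lineages, 1.33, 2.31 and 0.93. Each of these 3 was highest on the first depleted array, but they lie near the array median of 1, with SE of 0.54 to 0.57. Detection calls were not analysed, so the part of background in such dim values is not known, here and in the lists that follow. Of the 11 factors 7 read higher on the first than on the second, beside 33% of all genes tested. Hhex, a factor of somatostatin cells, went the other way at 1.98, 0.684 and 2.38, and Rfx3 and Foxa1 were highest on the second, at 4.22, 3.82 and 5.29 and at 3.90, 4.85 and 6.83. Pdx1, a factor of the duodenum and pancreas, read 1.14, 2.99 and 2.13, and Nkx2-2 read 0.307, 1.17 and 1.52. The size of the Nkx2-2 difference depends on the pseudocount, because its wild type value lies close to it. Neurog3, which commits progenitors to the enteroendocrine fate, was too dim to be tested, at 0.337, 0.256 and 0.595.

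Granule and exocytosis genes showed a similar split of the arrays. Of 22 tested, 19 read above wild type on the first depleted array (median 0.49) and 10 on the second (median -0.08), and 18 were higher on the first than on the second. As deposited the shares over all genes tested were 49.8%, 69.7% and 33%. The 3 other scalings gave 18 to 20 genes above wild type on the first and 7 to 8 on the second. Snap25, a SNARE protein of vesicle fusion, read 2.03 on the wild type array, 3.47 on the first depleted array and 1.30 on the second. Rab27a, a GTPase of granule docking, read 2.38, 5.22 and 2.44. Vamp2 and Syt7, also of vesicle fusion, were higher in both depleted arrays, Vamp2 at 6.46, 11.2 and 13.8 and Syt7 at 12.2, 23.7 and 21.9. Scg2, a further granin, read 2.58, 2.57 and 1.22.

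Prohormone processing genes went both ways. Of 7 tested, 4 read above wild type on the first depleted array (median 0.14) and 4 on the second (median 0.05, and between -0.24 and -0.14 with the 3 other scalings). Over all genes tested 49.8% and 69.7% did. Pcsk1, the convertase that cuts proglucagon to GLP-1, read 2.02 on the wild type array, 2.56 on the first depleted array and 1.17 on the second. Furin, a convertase made in most cells, read 9.53, 13.5 and 17.9, and Pcsk1n, an inhibitor of Pcsk1, read 0.634, 1.40 and 0.549. Cpe, which trims the cut peptides, read 11.6, 12.8 and 12.0. Of 9 other hormone and amine genes tested, 6 were higher on the first (median 0.10) and 4 on the second (median -0.02, and between -0.30 and -0.07 with the 3 other scalings). Tph1, the rate-limiting enzyme of serotonin synthesis in enterochromaffin cells, read 2.01, 3.11 and 1.5. Tac1, for substance P, read 9.09, 9.74 and 6.01, with its lowest value on the second depleted array. Guca2a, for guanylin, which is also made outside enteroendocrine cells, read 93.0, 130.2 and 136.8.

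Few receptors passed the filter on low intensity. Among 19 hormone receptors with a probe set 3 were tested. Sort1, which binds neurotensin and sorts proteins in many cells, read 26.8 on the wild type array, 34.9 on the first depleted array and 32.2 on the second. The somatostatin receptor Sstr3 read 0.728, 0.91 and 0.575. Sstr5, another somatostatin receptor, read 2.77 on the wild type array, 1.75 on the first depleted array and 1.45 on the second. The other 16, which include the receptors for cholecystokinin, GIP, secretin and ghrelin, read at most 0.641 on any array. Of 9 nutrient receptors 3 were tested. The fatty acid receptors Ffar2 and Ffar4 read 3.26, 3.46 and 1.71 and 1.26, 2.79 and 0.732, each highest on the first depleted array and lowest on the second. Slc5a1, the sodium-glucose transporter that enterocytes also express, had another order, at 97.9, 106.6 and 125.9.

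**Figure D4:**
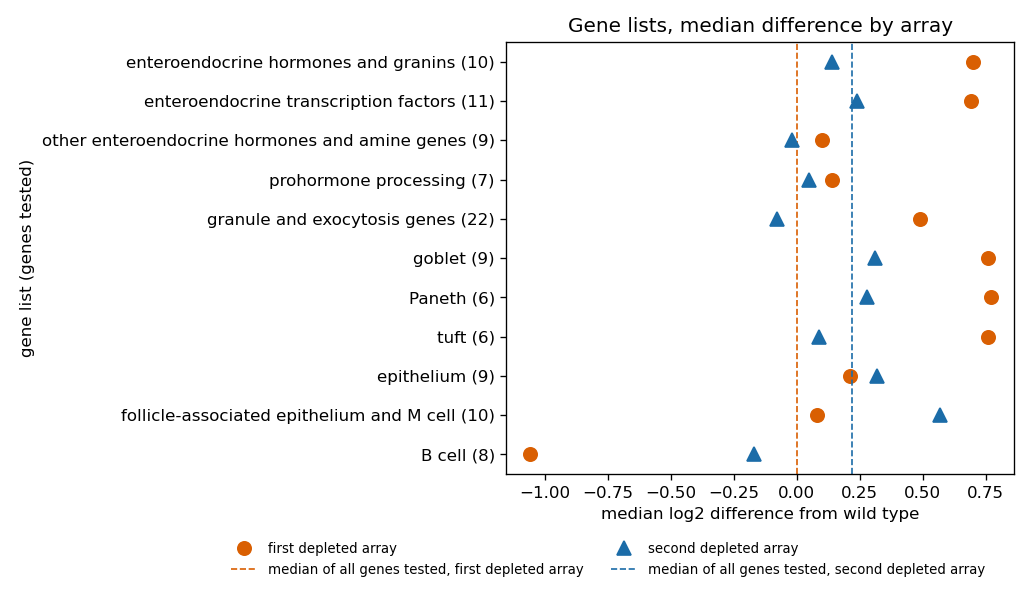
Median log2 difference from wild type of 11 gene lists on the first (circles) and second (triangles) depleted array, with the number of genes tested in parentheses; dashed lines give each array's median over all genes tested. The hormones and granins lie at 0.70 and 0.14, the goblet list at 0.76 and 0.31, the Paneth list at 0.77 and 0.28, the tuft list at 0.76 and 0.09, and the B cell list at -1.06 and -0.17; no list was tested, and with the 3 other scalings the triangles of several lists change sign.

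Markers of other cells moved with the hormones on the first depleted array, and their part in these values was not tested. Over all genes tested, 49.8% read above wild type on the first depleted array and 69.7% on the second. Goblet markers had medians of 0.76 and 0.31 on the first and second depleted array, with 9 and 7 of 9 above wild type, and summed intensities of 585 on the wild type array, 935 on the first and 777 on the second. Paneth markers had medians of 0.77 and 0.28 (5 of 6 above wild type in each array; sums 273, 447 and 328), and tuft markers 0.76 and 0.09 (5 and 4 of 6; sums 23.8, 40.8 and 24.3). The 10 hormones and granins summed to 166 on the wild type array, 272 on the first and 178 on the second. On the second array these medians depend on the scaling: with centring on the brighter genes they were 0.02 for goblet, -0.01 for Paneth and -0.20 for tuft markers. B cell markers went the other way on the first depleted array, with 1 of 8 above wild type and a median of -1.06, against 4 of 8 and -0.17 on the second (sums 41.5, 18.1 and 40.9). The Gapdh 3′ to 5′ ratio was highest on the first depleted array, while that of Actb was nearly equal there (1.15) and on the wild type array (1.11). A bearing of RNA quality on these values was not tested.

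The 9 pan-epithelial markers, such as Epcam and Krt8, had medians of 0.21 and 0.32, with 8 of 9 above wild type in each depleted array, and 0.09 and -0.06 with 6 and 4 above it after quantile normalization. As deposited, 49.8% and 69.7% of all genes tested read above wild type. Of the 10 hormones and granins 9 lay above the epithelial median on the first depleted array and 3 on the second. The median of the 10 genes was 0.49 above that of the epithelial markers on the first and lay at -0.18 from it on the second. Markers of the follicle-associated epithelium and M cells had medians of 0.08 and 0.57, with 6 and 9 of 10 above wild type. Of these 10, 1 (Ccl9) read higher on the first depleted array than on the second, beside 33% of all genes tested. With the other scalings, for which the 33% does not serve, 3 to 4 did. Gp2, one of the 4 of these 10 that were below wild type on the first depleted array, read 19.8 on the wild type array. It read 9.90 on the first depleted array and 32.6 on the second. Epithelial and M cell markers were thus read on all 3 arrays. No other tissue was read, so these markers cannot show that the RNA came from follicle-associated epithelium alone.

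Neurons, pancreatic islets and the stomach also make some of these hormones. Of 11 enteric neuron and glia markers with a probe set 2 were tested, Ret (0.811, 3.37 and 2.43) and Nos1 (0.471, 0.857 and 0.495), and the other 9, Vip, Elavl4 and Uchl1 among them, read at most 0.744 on any array (sums 3.36, 6.76 and 5.03). Of 6 islet markers with a probe set, Slc2a2, which enterocytes also express, and Iapp were tested. Ins2, for insulin, read 0.277, 0.475 and 0.309, and the 4 untested islet markers read at most 0.571 (list sums 35.9, 33.7 and 38.9). Of 7 stomach markers 2 were tested, Tff1 (1.15, 0.94 and 1.20) and Atp4b, and the other 5 read at most 0.508 (sums 2.70, 2.62 and 2.90). Of 8 pancreatic acinar markers 3 were tested, Cela1, Ctrb1 and Clps (10.5, 24.6 and 13.4), and the other 5 read at most 0.486 (sums 13.6, 28.0 and 18.7). Apart from Ret, Tff1, Slc2a2 and Iapp, the markers of neurons, islets and stomach were thus at or below the array median. The acinar Clps and Cela1 read above it on every array, both highest on the first depleted array, while Ctrb1 was highest on the second. Whether any of these cells contributed to the hormone values was not tested.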

How the data were processed

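Biotin-labelled cRNA from total RNA was read on 3 arrays. The authors deposited linear intensities; MAS5 is the tool named, per the submitters' processing notes. Each array's median is 1. Detection calls were not analysed here. Of 45037 probe sets that are not controls, the platform annotation gives 1 symbol to 34945, several to 932 and lists no entry for 9160. A gene was read by its probe set with the highest mean, and genes with a mean of at least 0.598 (the 40th percentile) were tested. Values were analysed as log2(value + 0.248), the pseudocount being the 25th percentile of all values, in R 4.3.3 with limma 3.58.1 (lmFit, eBayes with an intensity trend), tested on simulated data. Adjustment was by Benjamini-Hochberg over 11885 genes, with calls under 0.05. The spread comes from the 2 depleted arrays (1 residual degree of freedom per gene, pooled over genes) and is taken to hold for the single wild type array too. In the main settings the pooled part carried 600.3 degrees of freedom, so a gene's own spread hardly entered its SE. The number of arrays limits the precision. Members and lists were chosen with earlier results of these data known. All members are named with every probe set, and enteroendocrine genes of other lists freely. Of the remaining lists up to 3 of the brightest members could be named, and Gp2, Ret, Nos1, Vip, Elavl4, Uchl1, Ins2, Ccl9, Atp4b and Ctrb1 were named after their values were seen. Xist, Rbpj and the Gapdh and Actb controls are checks. Alternatives changed the pseudocount, filter, scaling, probe set rule, variance trend and the arrays used. Promoter sequences are RefSeq's, build GRCm38.p6.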

Additional observations from a re-analysis of the deposited data

How the results depend on the processing

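No hormone or granin was called under any of the 7 alternatives with a test (a pseudocount of 1, no filter, quantile normalization, the same 75th percentile, averaged probe sets, eBayes without trend, and centring on genes with a mean of at least 5, the last chosen after seeing the data), and at an unadjusted p under 0.05 the main settings gave 1, Nts. Median log2 differences of the 10 genes ran from 0.67 to 0.75 on the first depleted array. On the second the value of 0.14 as deposited became -0.17 (quantile), -0.05 (75th percentile) and -0.14 (centring). Fitted differences near 0 turned sign: Chgb to -0.18 (quantile), -0.04 (75th percentile) and -0.12 (centring), and Cck to -0.02 (quantile) and -0.07 (centring). These alternatives lower the second depleted array. Leaving out 1 depleted array leaves a value with no test: the median of the 10 genes was 0.14 without the first and 0.70 without the second, and without the first Chga lay at -0.14, Chgb at -0.24, Cck at -0.21 and Sst at -0.31, against 0.85, 0.29, 0.37 and 1.22 without the second. The positive fitted values of these 4 genes rest on the first depleted array. The number of genes called over the whole table was 10 as reported, 4 after either rescaling by quantiles or the 75th percentile, and 1 with no filter. No paired analysis was possible because the wild type group has 1 array and shares fewer than 2 replicate numbers with the depleted group.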
